A study of Mus musculus with 12 samples.

Results

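Genes of epithelial identity and cell junctions were followed across RNA sequencing of mouse cells in 12 libraries. The set holds 37 genes chosen by symbol, among them keratins, cadherins, claudins, desmosomal genes, epithelial transcription and splicing factors, membrane proteases with their inhibitors, and epithelial surface genes. All 37 matched 1 gene each of the 53647 in the count tables. The labels name DC2.4, immortalized mouse dendritic cells, and 4T1, mouse breast cancer cells, both of WT genotype. Under each name, 1 group received uniSTING mRNA, which encodes a mimic of the innate immune adaptor STING, and 1 received Mock mRNA, which encodes EGFP. A further pair labelled DC2.4 was incubated for 24 h with extracellular vesicles of 4T1 cells given uniSTING mRNA (EXOuniSTING) or Mock mRNA (EXOmock). Delivery was by a transfection reagent or by lipid nanoparticles, and the labels do not say which was used where. Each of the 6 groups holds 2 libraries, called preparation 1 and preparation 2, and the labels do not tell whether a group's libraries go back to separate cultures. The p-values therefore describe the spread between the libraries at hand, which may be technical.

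Epithelial cells are held together by junctions stacked along their sides. Claudins and occludin seal the tight junction, the cadherin of the adherens junction binds its like on the next cell and is tied to actin through catenins, and desmosomes and hemidesmosomes anchor the keratin filaments to neighbouring cells and to the basement membrane. This programme is kept on by factors such as GRHL2 and the splicing regulators ESRP1 and ESRP2, and is repressed by the SNAIL and ZEB proteins, which bind E-boxes in target promoters. Dendritic cells are leukocytes and are not held together by these junctions, while 4T1 cells are carcinoma cells of epithelial origin.

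Levels are given as CPM, counts scaled to the total of the library, which ran from 14059040 to 25975658. The epithelial genes stood where the labels name dendritic cells. The summed level of the 37 genes was 7832 ± 31.1 CPM in uniSTING and 7664 ± 45.3 CPM in Mock libraries labelled DC2.4 (SD, n = 2 each, as for every mean below). It was 355 ± 3.27 CPM in uniSTING and 361 ± 2.08 CPM in Mock libraries labelled 4T1, and 376 ± 2.81 CPM in EXOuniSTING and 407 ± 10.6 CPM in EXOmock libraries. In bulk RNA, fewer cells of a type and less RNA per cell cannot be told apart. The summed level of 16 leukocyte genes ran the other way. It was 155 to 211 CPM in the 4 DC2.4-labelled mRNA libraries, 9457 to 9677 CPM in the 4 labelled 4T1, and 12443 to 15351 CPM in the 4 given vesicles. Ptprc, the pan-leukocyte antigen CD45, had 19 and 0 counts in uniSTING and 8 and 0 counts in Mock libraries labelled DC2.4, so both preparation 2 libraries were at 0. The labels of both mRNA-treated lines thus go against these markers. All 16 were lower in Mock libraries labelled DC2.4 than in those labelled 4T1, by 2-fold or more. A list of 9 fibroblast and endothelial genes summed to 8.30 to 14.2 CPM in the DC2.4-labelled mRNA libraries and 0.160 to 4.79 CPM in the others. Groups keep the names on their labels below, whatever cells they hold.

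The 250 bases before the start of 21 of the genes were available from RefSeq, on assembly GRCm38.p6, which is an earlier build than the GRCm39 of the count tables. They are shown for 4 genes with among the highest levels per kb of exon in the DC2.4-labelled mRNA libraries, because E-boxes near the start of epithelial genes are known binding sites of the repressors of the programme. Sequences run 5′ to 3′ on the gene's strand, and capitals mark the E-box CACCTG or its reverse complement CAGGTG.
Epcam, chr17:87635729-87635978, plus strand: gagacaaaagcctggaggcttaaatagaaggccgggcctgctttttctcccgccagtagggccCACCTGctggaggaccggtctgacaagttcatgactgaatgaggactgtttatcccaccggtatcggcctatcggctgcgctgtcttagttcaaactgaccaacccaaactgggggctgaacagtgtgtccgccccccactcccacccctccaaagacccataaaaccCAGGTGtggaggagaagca
Krt8, chr15:102004343-102004592, minus strand: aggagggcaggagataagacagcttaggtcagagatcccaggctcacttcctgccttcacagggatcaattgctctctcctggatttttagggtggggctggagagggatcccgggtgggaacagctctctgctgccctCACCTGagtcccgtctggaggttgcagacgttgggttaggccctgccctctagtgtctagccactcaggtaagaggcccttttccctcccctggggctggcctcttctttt
Krt18, chr15:102027966-102028215, plus strand: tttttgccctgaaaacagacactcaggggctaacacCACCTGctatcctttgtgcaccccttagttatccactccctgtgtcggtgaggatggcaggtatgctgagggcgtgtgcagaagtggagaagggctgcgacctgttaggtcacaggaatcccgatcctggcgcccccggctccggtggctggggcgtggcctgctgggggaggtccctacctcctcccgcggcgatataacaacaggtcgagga
Cldn4, chr5:134946935-134947184, minus strand: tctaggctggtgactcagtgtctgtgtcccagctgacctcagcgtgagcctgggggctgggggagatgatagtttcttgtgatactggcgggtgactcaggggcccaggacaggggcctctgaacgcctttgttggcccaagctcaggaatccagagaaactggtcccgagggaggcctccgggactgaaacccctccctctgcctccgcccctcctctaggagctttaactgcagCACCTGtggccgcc
The letters CACCTG or CAGGTG stood in 15 of the 25 windows of these 21 genes (some genes have more than 1 start), and in 17.2% of all 32851 windows in the table. The letters AACCNGTT or AACNGGTT, a form of the site known for Grainyhead-like factors searched on both strands, stood in 2 of the 25 windows, those of Muc1 and Rab25, and in 1.79% of all windows. The letters AACCGGTT stood in 0 of the 25 and in 0.116% of all. Such matches describe the sequence alone, and genes of the set were chosen by name.

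**Figure D1:**
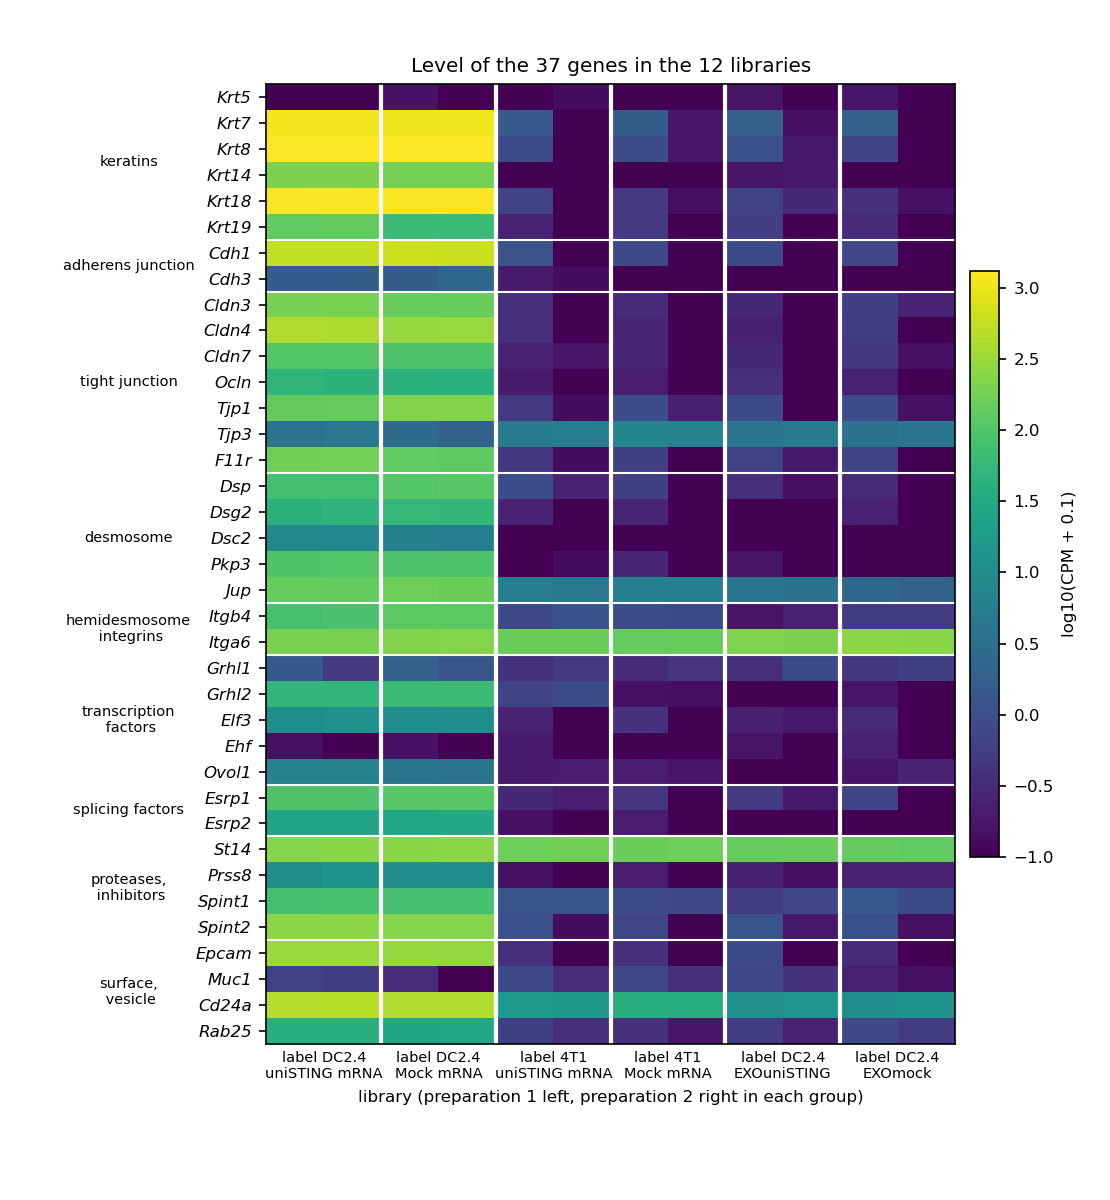
Level of the 37 genes (rows, grouped by role) in the 12 libraries (columns, preparation 1 left of preparation 2 in each group), as log10(CPM + 0.1). The 4 left columns, labelled DC2.4 and given mRNA, are bright for 31 genes, while Itga6, St14, Cd24a, Jup and Tjp3 are the genes that reach 5 CPM in a group among the 8 columns to the right.

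The identity genes showed the same split one by one. At 5 CPM or more in a group, the level from which responses are described, stood 31 of the 37 genes in the DC2.4-labelled mRNA libraries, 5 in those labelled 4T1 and 3 in the vesicle-treated ones. The genes under that level in all 6 groups were Krt5, Cdh3, Grhl1, Ehf and Muc1. In the groups labelled 4T1 or given vesicles, the highest mean among the 32 genes under 5 CPM there was that of Spint1, at 1.07 ± 0.00624 CPM in uniSTING libraries labelled 4T1. Epcam (chr17:87943407-87958557 on GRCm39, plus strand), an adhesion molecule of most simple epithelia, had 313 and 318 CPM in uniSTING and 288 and 286 CPM in Mock libraries labelled DC2.4. It had 5 and 0 counts in uniSTING and 5 and 0 counts in Mock libraries labelled 4T1, and 11 and 0 counts in EXOuniSTING and 3 and 0 counts in EXOmock libraries. Every preparation 2 library outside the DC2.4 mRNA groups was therefore at 0, where a floor of 3 counts allows 0.115 to 0.160 CPM, counting error only.

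Krt18 and Krt8, whose proteins pair in the filaments of simple epithelia, had the highest levels per kb of exon of the set. Krt8 had 1312 and 1303 CPM in uniSTING and 1269 and 1285 CPM in Mock libraries labelled DC2.4. Krt18 had 1226 and 1246 CPM in uniSTING and 1226 and 1235 CPM in Mock libraries with that label. Both were high in all 4 of these libraries. Krt8 (chr15:101905133-101912917 on GRCm39) had 15 and 0 counts in uniSTING and 15 and 2 in Mock libraries labelled 4T1, and 15 and 2 in EXOuniSTING and 8 and 0 in EXOmock libraries. Krt18 (chr15:101936615-101940462) had 12 and 0 counts in uniSTING and 7 and 1 in Mock libraries labelled 4T1, and 8 and 4 in EXOuniSTING and 4 and 1 in EXOmock libraries. Both genes were thus traces outside the DC2.4-labelled mRNA libraries, with most of their counts in preparation 1. Per kb of exon, Krt18 stood at 860.0 ± 9.54 CPM in uniSTING and 856 ± 4.84 CPM in Mock libraries labelled DC2.4, above Krt8 at 668 ± 3.07 CPM in uniSTING and 652 ± 5.93 CPM in Mock, by more than the spread between libraries. Per kb of exon in the same Mock libraries, Krt7, of simple and glandular epithelia, stood at 151 ± 3.04 CPM, Krt14, of basal cells, at 102 ± 0.327 CPM and Krt19, of ductal epithelia, at 35.7 ± 0.902 CPM. Krt5, the usual partner of Krt14 in basal cells, had 0 or 1 count in every library. A pseudogene of Krt8 shares sequence with it, and counting kept uniquely mapped reads, so the level of Krt8 is uncertain to that extent.

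Junction genes were present at each level of the junctional complex in the DC2.4-labelled mRNA libraries. Cdh1, the cadherin of epithelial adherens junctions, had 542 and 541 CPM in uniSTING and 635 and 624 CPM in Mock libraries labelled DC2.4. It had 20 and 0 counts in uniSTING and 12 and 0 counts in Mock libraries labelled 4T1, and 11 and 0 counts in EXOuniSTING and 9 and 0 counts in EXOmock. Its placental relative Cdh3 had 1.49 and 1.52 CPM in uniSTING and 1.54 and 2.31 CPM in Mock libraries labelled DC2.4, under 5 CPM. Per kb of exon in the Mock libraries labelled DC2.4, the tight junction genes were ordered Cldn4 at 164 ± 3.11 CPM, Cldn3 at 115 ± 2.18 CPM, Cldn7 at 47.6 ± 0.416 CPM, F11r at 47.4 ± 0.932 CPM, the scaffold gene Tjp1 at 27.8 ± 0.402 CPM and Ocln at 10.2 ± 0.303 CPM. Cldn7 and F11r, an adhesion molecule beside the strands, did not differ beyond their spread. Of the desmosomal genes in the same libraries, per kb of exon, the plaque genes Pkp3 and Jup stood at 26.1 ± 0.0351 and 24.5 ± 0.425 CPM, Dsp, which links the plaque to keratin, at 11.3 ± 0.519 CPM, and the desmosomal cadherins Dsg2 and Dsc2 at 6.50 ± 0.206 and 1.12 ± 0.114 CPM. Itga6 and Itgb4, which form the laminin receptor of hemidesmosomes, stood at 24.1 ± 0.268 and 17.3 ± 0.0498 CPM per kb.

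Regulators and proteases followed. On the CPM scale in the libraries labelled DC2.4, Grhl2 stood at 51.7 ± 2.06 in uniSTING and 62.6 ± 2.61 in Mock, and its relative Grhl1 at 0.836 ± 0.619 and 1.42 ± 0.410. The ETS-family gene Elf3 stood at 11.1 ± 1.61 CPM in uniSTING and 10.3 ± 0.247 CPM in Mock, while Ehf of the same family had 0 or 1 count in each of these 4 libraries and 0 to 2 over all 12. The zinc finger gene Ovol1 stood at 6.60 ± 0.0286 CPM in uniSTING and 3.85 ± 0.0522 CPM in Mock, so that it passed 5 CPM only through the uniSTING group. In uniSTING libraries Esrp1 stood at 97.7 ± 0.343 CPM and Esrp2 at 25.5 ± 0.244 CPM, against 112 ± 1.01 and 29.3 ± 1.47 CPM in Mock libraries. St14, the membrane protease matriptase, had 239 ± 7.66 CPM in uniSTING and 249 ± 3.02 CPM in Mock, and Prss8, a partner protease, 12.1 ± 1.57 and 10.1 ± 0.237 CPM. The Kunitz-type inhibitors of St14 had 82.5 ± 1.79 CPM (Spint1) and 254 ± 0.126 CPM (Spint2) in uniSTING, against 77.2 ± 1.35 and 231 ± 1.04 CPM in Mock. Among surface and vesicle genes, the mucin gene Muc1 stayed under 1 CPM in all 6 groups, and Rab25, a small GTPase of apical recycling, stood at 39.2 ± 0.129 CPM in uniSTING and 28.5 ± 1.24 CPM in Mock libraries labelled DC2.4.

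Between the Mock groups, DC2.4 label over 4T1 label, 30 of the 31 genes at 5 CPM or more were higher and 1 was lower by edgeR's quasi-likelihood test over all genes (Benjamini-Hochberg adjusted p under 0.05). Over all 11029 genes at that level, 46.6% were higher and 43% lower. These 31 genes hold Tjp3 and not Ovol1, unlike the 31 counted in the DC2.4-labelled mRNA libraries. Of the 31 genes, only Itga6, St14, Cd24a, Jup and Tjp3 reached 5 CPM in Mock libraries labelled 4T1. The rest passed that level only through the DC2.4 label, where they were high, so their direction was largely set by the level rule. The median log2 fold change of the 31 genes was 9.54. It was 9.27 with Krt14 and Dsc2, at 0 in the 4T1 Mock libraries, set at a floor of 3 counts over the group. Against the same floor Krt14 was at least 2577-fold higher and Dsc2 at least 85.0-fold higher in Mock libraries labelled DC2.4. With both at these bounds and the others at their fitted values, 24 genes were higher by 100-fold or more. The smallest rises were St14 at 0.70 ± 0.0329, Itga6 at 0.71 ± 0.0245, Cd24a at 3.55 ± 0.0391 and Jup at 4.85 ± 0.0669 (log2 fold change ± SE). The gene that was lower, Tjp3, a relative of Tjp1 in the tight junction plaque, had 2.69 and 1.77 CPM under the DC2.4 label, against 7.50 and 6.66 CPM under the 4T1 label, a log2 fold change of -1.60 ± 0.200.

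The 27 genes at 5 CPM or more in the DC2.4-labelled mRNA libraries, and under it elsewhere, left traces in the other 8 libraries that differed by preparation. Summed over the 27 genes, the 4 preparation 1 libraries held 156 to 218 counts each (10.4 to 11.4 CPM) and the 4 preparation 2 libraries 39 to 97 counts (1.84 to 3.73 CPM). In each group the preparation 2 library was the deeper of the pair. The sum over libraries was higher in preparation 1 for 21 of the 27 genes, and for 12 every preparation 1 library was above every preparation 2 library. How many of all genes at such low levels show this was not computed. Over all genes counted, each preparation 1 library had a count for more genes than its deeper preparation 2 partner. These were 18661 against 18033 genes in uniSTING and 18131 against 17724 in Mock libraries labelled 4T1. In the vesicle pair they were 17877 against 17174 in EXOuniSTING and 18309 against 17858 in EXOmock libraries. Krt7 had 25 to 28 counts in each preparation 1 library and 0 to 2 in each preparation 2 library. In raw counts 5 genes had the higher sum in the deeper preparation 2 libraries. Transcripts of 10 lung and islet genes, such as surfactants and insulins, also stood apart by preparation in the same 8 libraries, with 1410 to 3462 counts in preparation 1 and 0 to 3 in preparation 2. In the libraries labelled DC2.4 they had 4208 and 0 counts in uniSTING and 2744 and 0 counts in Mock. The columns of the tables end in L1 for preparation 1 and L2 for preparation 2, and no source used here says what they mean. The part of any of this in the traces was not tested.

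**Figure D2:**
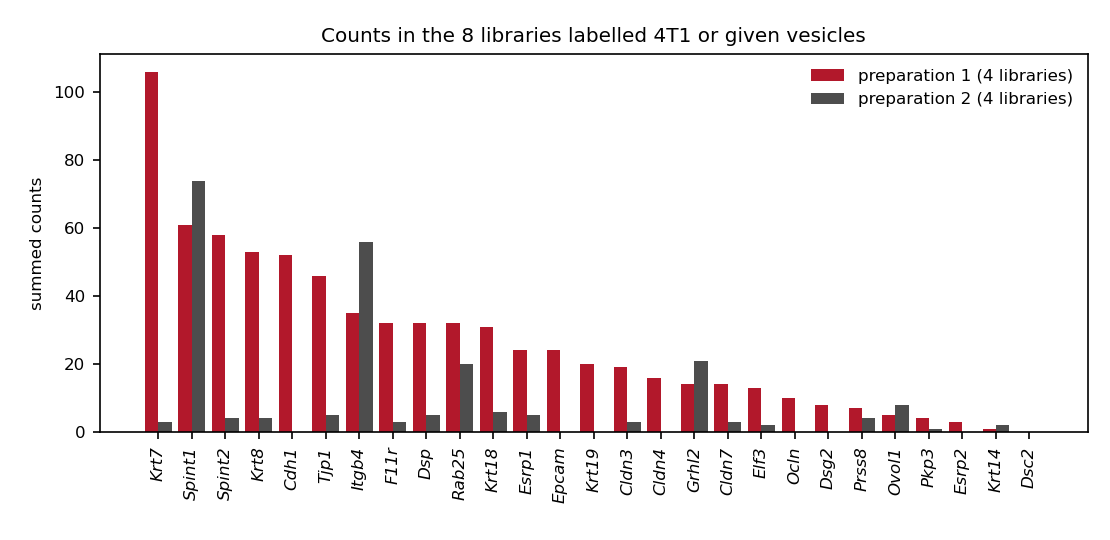
Counts of the 27 genes (horizontal axis) summed over the 4 preparation 1 libraries and the 4 preparation 2 libraries labelled 4T1 or given vesicles (vertical axis, raw counts). Krt7 reached 106 counts in preparation 1 and 3 in preparation 2, and Spint1, Itgb4, Grhl2, Ovol1 and Krt14 are the genes whose preparation 2 bar is the taller, in raw counts of libraries deeper than those of preparation 1.

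With uniSTING mRNA against Mock mRNA in the libraries labelled DC2.4, Krt19, Krt14, Cldn3, Cldn4, F11r, Ovol1, Rab25 and Cd24a rose, and Tjp1, Itgb4, Itga6, Dsp, Jup and Grhl2 fell. Krt19 came close to a doubling and the other changes were smaller. Of the 31 genes at 5 CPM or more, 8 rose, 6 fell and 17 were not called by the same test. Among the 8, Ovol1 passed that level only through the uniSTING group, so its direction was set by the level rule. Over all 10140 genes at that level 27% rose and 28.1% fell, 55.1% in all. In this fit over 12 libraries, 14 called of 31 is therefore not more than the background. The median log2 fold change of the 31 genes was 0.11, against -0.00 over all genes. The 14 genes called had 2 uniSTING and 2 Mock values that did not overlap, and moved the same way in both preparations. Of the 17 not called, only Krt18 and Elf3 had values that overlapped, so this does not set the called genes apart. The share of all genes without overlap was not computed. The lung and islet transcripts, at 0 in both preparation 2 libraries, were in preparation 1 higher in the uniSTING than in the Mock library.

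Among keratins, Krt19 rose most, with 128 and 133 CPM in uniSTING and 67.5 and 65.1 CPM in Mock libraries. Both uniSTING values lay far above both Mock values, at a log2 fold change of 1.00 ± 0.114 (SE, adjusted p = 6.5e-06). It was the only one of the 31 called with a fitted change at the 2-fold mark, which 0.809% of all genes reached upward, and it stood on that mark rather than beyond it. Krt14 had 202 and 204 CPM in uniSTING and 179 and 179.8 CPM in Mock libraries, a small rise of 0.20 ± 0.0316 (adjusted p = 0.000443). Krt8, Krt18 and Krt7 were not called, at 0.05 ± 0.0777, 0.03 ± 0.0547 and 0.06 ± 0.116.

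Tight junction genes moved in both directions. Cldn4 had 419 and 415 CPM in uniSTING and 293 and 301 CPM in Mock libraries, a log2 fold change of 0.51 ± 0.0485 (adjusted p = 1.28e-06). Cldn3 rose to 189.8 and 197 CPM in uniSTING, against 143 and 147 CPM in Mock libraries, by 0.44 ± 0.0671 (adjusted p = 0.000107). F11r rose to 171 and 173 CPM, against 128 and 124 CPM in Mock, by 0.46 ± 0.0885 (adjusted p = 0.000695). These membrane genes rose while the scaffold gene Tjp1, which ties claudins to actin, fell. Tjp1 had 134 and 138 CPM in uniSTING and 219.5 and 215 CPM in Mock libraries, a log2 fold change of -0.66 ± 0.0950 (adjusted p = 6.53e-05). Cldn7 at 0.16 ± 0.0815 and Ocln at 0.14 ± 0.141 were not called. Cdh1 was not called either, at -0.20 ± 0.0853 (adjusted p = 0.0805), with 542 and 541 CPM in uniSTING against 635 and 624 CPM in Mock libraries. Tjp3, under 5 CPM in both groups, had 3.77 and 4.27 CPM in uniSTING and 2.69 and 1.77 CPM in Mock libraries.

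Of the desmosomal and hemidesmosomal genes, 4 of 7 fell and 0 rose, where 28.1% of all genes and 38.5% of genes of 3.616 kb or longer fell. Under an offset for gene length, described below, Itgb4 kept its call and Dsp, Jup and Itga6 lost theirs. Dsp had 78.2 and 75.5 CPM in uniSTING and 105 and 112 CPM in Mock libraries, a log2 fold change of -0.49 ± 0.123 (adjusted p = 0.00545). Itgb4 had 83.1 and 85.4 CPM in uniSTING and 122 and 121 CPM in Mock libraries, a log2 fold change of -0.51 ± 0.0455 (adjusted p = 6.07e-07). Its partner Itga6 fell less, by 0.16 ± 0.0237 on the log2 scale (adjusted p = 9.74e-05), with 194 and 196 CPM in uniSTING and 219 and 222 CPM in Mock libraries. The offset put Itga6 at 0.0015, which removes its direction. Jup, which encodes plakoglobin, had 139 and 134 CPM in uniSTING and 159.6 and 156 CPM in Mock libraries, a log2 fold change of -0.19 ± 0.0414 (adjusted p = 0.00221). Dsg2 at -0.23 ± 0.129, Dsc2 at 0.52 ± 0.211 and Pkp3 at 0.10 ± 0.0722 were not called.

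Among regulators, Ovol1 rose and Grhl2 fell. Ovol1 passed 5 CPM only through the uniSTING group, so the level rule admitted its rise and would have left out a fall. Ovol1 had 6.58 and 6.62 CPM in uniSTING and 3.89 and 3.81 CPM in Mock libraries, or 124 and 166 counts against 68 and 84, a log2 fold change of 0.80 ± 0.221 (adjusted p = 0.0109). Gm31166 on the opposite strand, itself at no more than 1.43 CPM, overlaps 19.8% of its exonic bases, and reads were counted without strand, so that Ovol1 can hold reads of that gene. Grhl2 had 53.2 and 50.3 CPM in uniSTING and 60.7 and 64.4 CPM in Mock libraries, a log2 fold change of -0.26 ± 0.0792 (adjusted p = 0.0189). Elf3 at 0.12 ± 0.319, Esrp1 at -0.18 ± 0.0961 and Esrp2 at -0.19 ± 0.130 were not called. Neither were the proteases and inhibitors, with St14 at -0.04 ± 0.0316, Prss8 at 0.29 ± 0.213, Spint1 at 0.11 ± 0.0635 and Spint2 at 0.16 ± 0.0929. On the opposite strand, Nfatc3, at up to 167 CPM, overlaps 5.05% of the exonic bases of Esrp2. Kat8, at up to 21.0 CPM, overlaps 6.59% of those of Prss8, so that Esrp2 and Prss8 can hold reads of these genes. Of the surface and vesicle genes, Rab25 rose to 39.3 and 39.1 CPM in uniSTING, against 27.7 and 29.4 CPM in Mock libraries, by 0.48 ± 0.122 (adjusted p = 0.00591). Cd24a, a lipid-anchored surface glycoprotein of epithelia and leukocytes, had 456 and 465 CPM in uniSTING and 423 and 429 CPM in Mock libraries, by 0.13 ± 0.0292 (adjusted p = 0.00225). Epcam, at 0.16 ± 0.0628 (adjusted p = 0.0606), was not called.

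**Figure D3:**
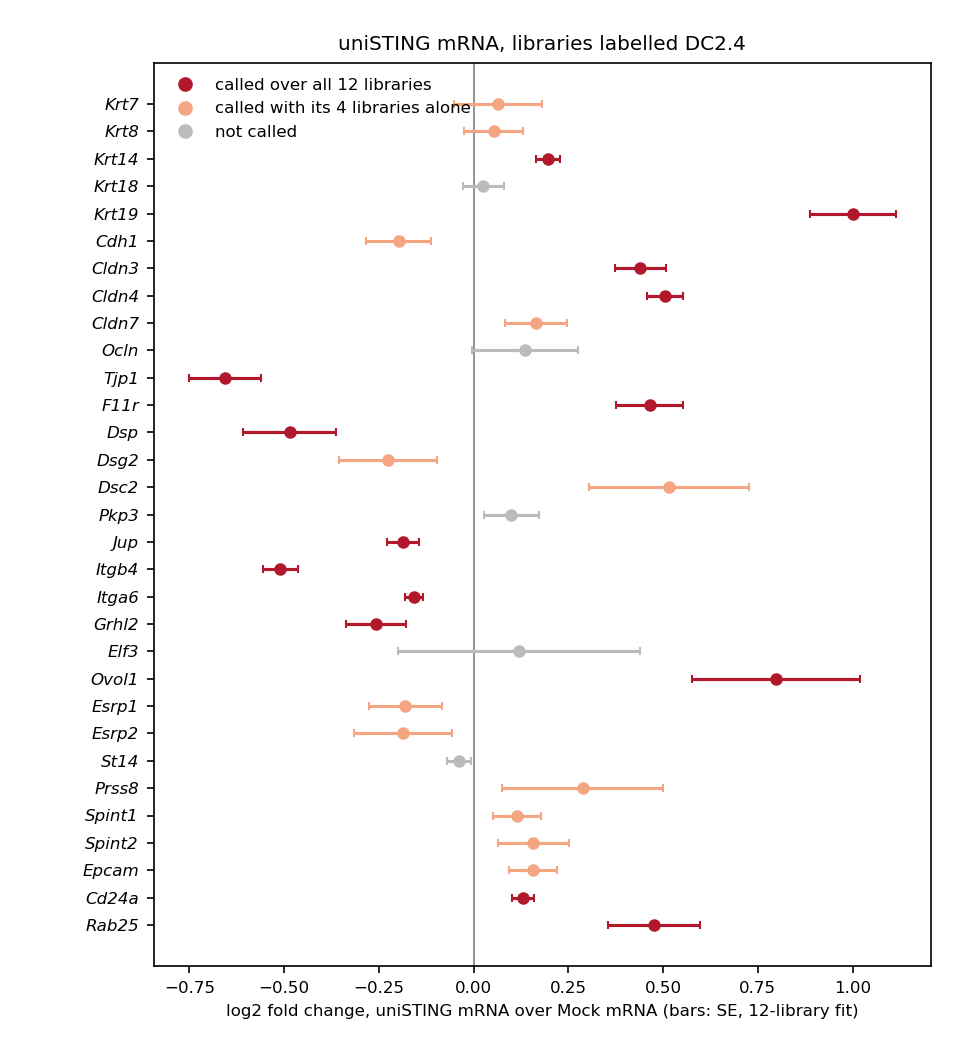
Log2 fold change with its SE (horizontal axis) of the 31 genes at 5 CPM or more, uniSTING over Mock mRNA, in the libraries labelled DC2.4. Krt19 at 1.00 and Tjp1 at -0.66 mark the ends, dark points are called over all 12 libraries and light points are called when the 4 libraries are fitted alone.

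How many genes passed depended on which libraries shared the estimate of spread. The fit above estimates the spread of a gene over all 12 libraries, among them the 8 in which most of these genes had a few counts that differed by preparation. With the 4 DC2.4-labelled mRNA libraries fitted alone, 26 of the 31 genes were called, 16 higher and 10 lower, and all 14 genes above were called the same way. Over all 10140 genes 28.8% rose and 30.4% fell in that fit. There the 26 called of 31 were a larger share than that of all genes, unlike the 14 above. How the set compares with the background thus depends on the fit. The median SE of the 31 genes was 0.0301 in it, against 0.0853 over 12 libraries. Epcam at 0.15 ± 0.0212 and Krt8 at 0.05 ± 0.0139 were then called higher, and Cdh1 at -0.20 ± 0.0168 was called lower. Krt18, Ocln, Pkp3, Elf3 and St14 were the 5 not called in either fit, named here after their values were seen. DESeq2 over the 12 libraries called 7 of the 31 genes and did not call Krt19, Cldn3, Cldn4, F11r, Tjp1, Dsp or Ovol1. Ovol1 lost its call without any 1 of the 4 libraries, Dsp and Grhl2 without either preparation 2 library, and Rab25 without Mock preparation 1.

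**Figure D4:**
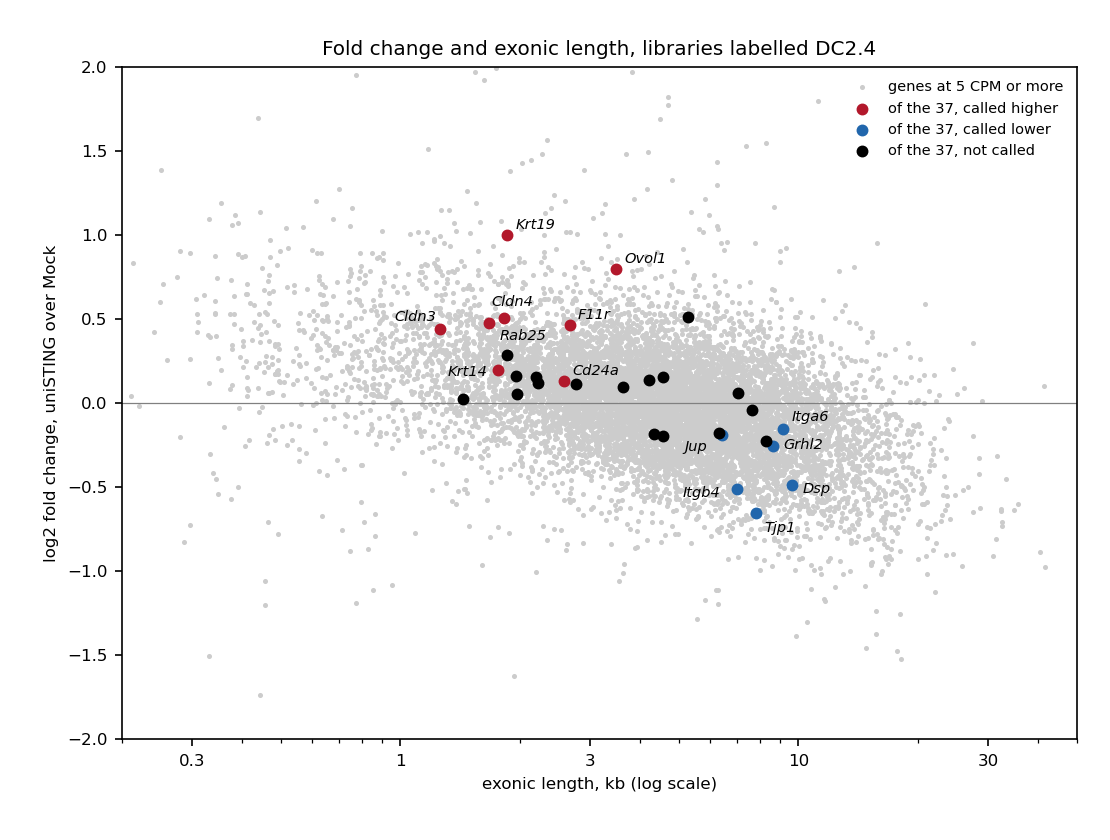
Log2 fold change, uniSTING over Mock mRNA in the libraries labelled DC2.4 (vertical axis), against exonic length in kb (horizontal axis, log scale), for the 31 genes over all 10140 genes at 5 CPM or more (grey; points beyond the axes are not shown). The genes called higher lie between 1.26 and 3.49 kb and those called lower between 6.44 and 9.66 kb.

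Direction went with exonic length. The 8 genes that rose were 1.26 to 3.49 kb long and the 6 that fell 6.44 to 9.66 kb. Spearman's rho between log2 fold change and length was -0.71 across the 31 genes and -0.45 across all 10140 genes. Genes share libraries and are not independent replicates, so no p is given. Of the 15 genes shorter than 3.616 kb, the median length of the 31, 8 rose and 0 fell, where 42.7% of all genes of that length rose and 10.4% fell. Of the 16 others, 0 rose and 6 fell, where 17.8% of all genes rose and 38.5% fell. With an offset per library that removes the trend of all genes with length, 9 of the 31 genes were called and the median log2 fold change was 0.02. Krt14, Cd24a, Rab25, Dsp, Jup and Grhl2 lost their calls under that offset, and Itga6 moved to 0.0015 and was not called. Krt19, Ovol1, Cldn3, Cldn4, F11r, Tjp1 and Itgb4 kept theirs, with Cldn3 at 0.20 in place of 0.44 and Cldn4 at 0.33 in place of 0.51. The other 2 of the 9 calls were Krt18 at -0.19 and St14 at 0.08, which were not called without the offset.

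Other genes of the same structures were read from lists of relatives. Of 8 adherens junction genes at 5 CPM or more in the libraries labelled DC2.4, 6 fell and 0 rose, with Afdn at -0.50, the catenin genes Ctnnb1 at -0.25 and Ctnna1 at -0.21, and Vcl at -0.40 (log2 fold change, uniSTING over Mock). Beside this and the next counts stand the 28.1% of all genes that fell and 27% that rose, and the 38.5% of genes of 3.616 kb or longer that fell. Values for these lists are without the length offset, and the 38.5% was not matched to the lengths of their genes. Of 15 tight junction and polarity genes, 1 rose and 6 fell, with the cingulin relative Cgnl1 at -0.66, Pard6b at -0.38 and Pard3 at -0.46. Of 12 desmosome, hemidesmosome and laminin genes, 3 rose and 5 fell. The linker gene Plec fell most of these, to 104 and 98.1 CPM in uniSTING libraries against 293 and 293 CPM in Mock libraries, a log2 fold change of -1.52, and Lama5 at -1.02, Dst at -0.98 and Pkp4 at -0.33 were next by adjusted p. Of 6 further epithelial transcription factors Sox9 rose, by 0.31, and Klf5 fell, at -0.30. Of 3 proteases and inhibitors Serpinb5 rose, by 0.81, and Krt80, the 1 further keratin at that level, was not called. Of 6 mesenchymal genes 3 fell and 0 rose, with Fn1, fibronectin, at -1.18, Vim at -0.22 and Zeb2 at -0.70. The summed level of 16 leukocyte genes was 211 and 189 CPM in uniSTING and 177 and 155 CPM in Mock libraries labelled DC2.4, and its part in these changes was not tested.

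In the libraries labelled 4T1, 5 of the 37 genes reached 5 CPM, and uniSTING mRNA against Mock mRNA gave 1 rise and 1 fall among them. Over all 10000 genes at that level 16.6% rose and 22% fell. Cd24a had 16.9 and 15.8 CPM in uniSTING and 38.4 and 38.0 CPM in Mock libraries, so that both uniSTING values were less than 0.5 times either Mock value. Its log2 fold change was -1.26 ± 0.0619 (adjusted p = 1.07e-08), a fall of 2-fold or more of the kind that 0.11% of all genes showed. Itga6 had 158 and 157 CPM in uniSTING and 141 and 142 CPM in Mock libraries, a rise of 0.12 ± 0.0250 (adjusted p = 0.00206). St14 at -0.01 ± 0.0337, with 159.9 and 166 CPM in uniSTING and 158 and 164 CPM in Mock libraries, overlapped between the groups. Jup was not called at -0.30 ± 0.124 (adjusted p = 0.0941), with 5.35 and 4.35 CPM in uniSTING and 5.99 and 5.59 CPM in Mock libraries. Tjp3 was not called at -0.48 ± 0.179 (adjusted p = 0.0627), with 5.09 and 5.24 CPM in uniSTING and 7.50 and 6.66 CPM in Mock libraries, values that did not overlap. Tjp3 was called lower when the 4 libraries were fitted alone, at -0.46 ± 0.127, a fit that called 42.6% of all genes. Apba3 on the opposite strand overlaps 1.08% of the exonic bases of Tjp3. Grhl2, far under 5 CPM, had 12 and 20 counts in uniSTING and 1 and 1 counts in Mock libraries labelled 4T1. The summed level of the 16 leukocyte genes was 9460 and 9457 CPM in uniSTING and 9646 and 9677 CPM in Mock libraries, and its part in these changes was not tested.

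In the vesicle-treated libraries labelled DC2.4, 3 of the 37 genes reached 5 CPM and 1 of them changed between EXOuniSTING and EXOmock. Over all 10101 genes at that level 10.7% rose and 11.1% fell. Itga6 had 207 and 204 CPM in EXOuniSTING and 253 and 247 CPM in EXOmock libraries, a log2 fold change of -0.28 ± 0.0242 (adjusted p = 5.63e-06), with no overlap between the groups. St14 had 140.2 and 145 CPM in EXOuniSTING and 134 and 131 CPM in EXOmock libraries, not called at 0.11 ± 0.0372 (adjusted p = 0.0673), and called when the 4 libraries were fitted alone (0.11 ± 0.0317), where 23.5% of all genes were called, and with the length offset (0.12). Cd24a had 12.1 and 14.3 CPM in EXOuniSTING and 10.5 and 12.4 CPM in EXOmock libraries, groups that overlap, at 0.22 ± 0.0939 (adjusted p = 0.142). Jup, under 5 CPM, had 57 and 68 counts in EXOuniSTING and 32 and 34 counts in EXOmock libraries. The 16 leukocyte genes summed to 13222 and 12443 CPM in EXOuniSTING and 15262 and 15351 CPM in EXOmock libraries, and their part in the change of Itga6 was not tested.

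**Figure D5:**
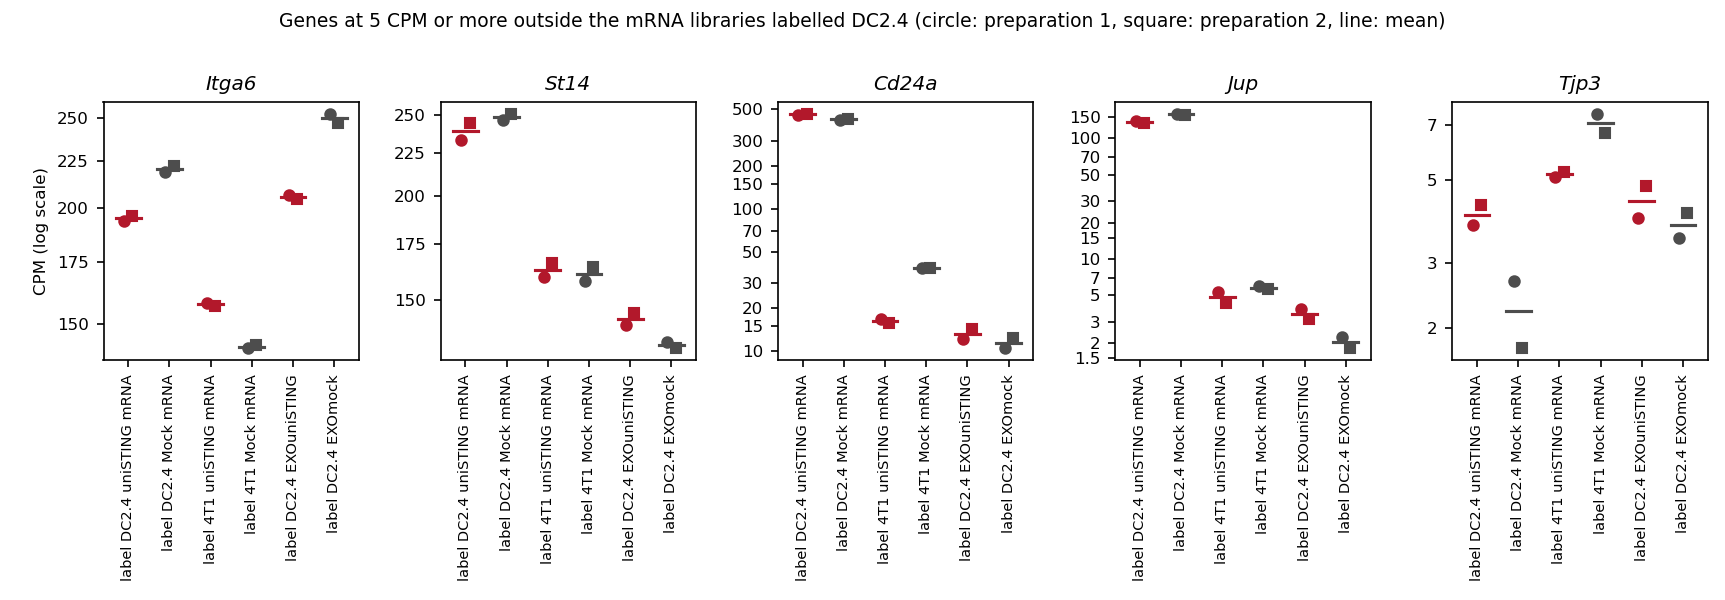
CPM per library (log scale, a separate range in each panel) of Itga6, St14, Cd24a, Jup and Tjp3 in the 6 groups, uniSTING or EXOuniSTING left of its Mock or EXOmock group, with lines at the group means. Itga6 lies between 141 and 253 CPM in all 12 libraries, while Cd24a drops to 10.5 to 38.4 CPM outside the mRNA libraries labelled DC2.4.

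Itga6, St14 and Cd24a, at 5 CPM or more in every group, had levels of their own. Itga6 (chr2:71575960-71688760 on GRCm39, plus strand) was highest in EXOmock at 250.1 ± 3.97 CPM and lowest in Mock labelled 4T1 at 142 ± 0.851 CPM. In between came Mock labelled DC2.4 at 220.3 ± 2.45 CPM, EXOuniSTING at 206 ± 1.61 CPM, uniSTING labelled DC2.4 at 195 ± 1.84 CPM and uniSTING labelled 4T1 at 158 ± 0.837 CPM, all further apart than their SDs. St14 (chr9:31000698-31043149, minus strand) had 234 and 244 CPM in uniSTING and 247 and 251 CPM in Mock libraries labelled DC2.4, and ran down to 132 ± 1.54 CPM in EXOmock, while both groups labelled 4T1 overlapped in between. Cd24a (chr10:43454280-43460261, plus strand) ran from 11.4 ± 1.34 CPM in EXOmock to 460.3 ± 6.60 CPM in uniSTING labelled DC2.4. Between EXOmock and Mock labelled 4T1, both rich in leukocyte markers, Itga6, St14, Cd24a, Jup and Tjp3 all differed. Jup and Tjp3 reached 5 CPM only in the Mock group of this pair. Of 10112 genes, 32.6% were higher and 37.9% lower in EXOmock. Itga6 was higher in EXOmock by 0.82 ± 0.0247, and St14 at -0.29 ± 0.0360, Tjp3 at -0.89 ± 0.191, Jup at -1.51 ± 0.167 and Cd24a at -1.73 ± 0.0730 were lower (log2 fold change ± SE). These groups differ in label and in treatment, which cannot be told apart.

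The responses of Itga6 and Cd24a differed between the cell labels. For Cd24a the response to uniSTING mRNA was 1.39 ± 0.0685 higher on the log2 scale under the DC2.4 label than under the 4T1 label (adjusted p = 3.53e-09). For Itga6 the same difference of responses was -0.28 ± 0.0344 (adjusted p = 2.62e-05), with a fall under the DC2.4 label and a rise under the 4T1 label in both preparations. With the length offset the response under the DC2.4 label became 0.0015 and was not called, that under the 4T1 label was 0.17, and their difference was -0.17 and still called. Of the 4 genes at 5 CPM or more in both pairs these 2 were called, where 44.7% of 8944 genes were. Jup at 0.11 ± 0.130 and St14 at -0.02 ± 0.0463 were not. Set against the vesicle pair, the response to mRNA under the 4T1 label was 0.41 ± 0.0347 higher for Itga6 (adjusted p = 1.83e-06) and differed by -1.47 ± 0.113 for Cd24a (adjusted p = 6.67e-07), and St14 was not called at -0.12 ± 0.0503. Of all 9886 genes 37.9% were called in that comparison, and both differences share the libraries labelled 4T1.

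In the lists of relatives, 0 of 10 further keratins reached 5 CPM in the libraries labelled 4T1 and 1 in the vesicle-treated ones, while the broadly used junction genes were better represented. Beside the counts for the 4T1 label stand the 16.6% of all genes at that level that rose and 22% that fell. For the vesicle pair these shares were 10.7% and 11.1%. Of the adherens junction list, 7 of 9 genes reached 5 CPM in the libraries labelled 4T1, and uniSTING mRNA gave 2 rises and 2 falls, with Ctnna1 at -0.23, Ctnnb1 at -0.12, Vcl at 0.14 and Afdn at 0.07. Of 7 tight junction and polarity genes Llgl2 rose, by 0.39, and Magi1 fell, at -0.35. Of 5 desmosome, hemidesmosome and laminin genes 3 rose, the linkers Dst by 0.31 and Plec by 0.19 and the tetraspanin gene Cd151 by 0.22, and 0 fell. For Plec and Dst the difference of responses, DC2.4 label minus 4T1 label, was -1.71 and -1.29 on the log2 scale without the length offset. Both were past the threshold, as were 44.7% of all genes compared. In the vesicle pair, Dst at -0.58 and Plec at -0.32 fell and Pkp2 rose by 0.34, of 5 genes. There the 1 further keratin at that level was not called, the adherens junction list gave 1 rise and 1 fall of 7, and the tight junction and polarity list 0 rises and 2 falls of 7, Cldn12 at -0.38 and Llgl2 at -0.53. Of the 3 further epithelial transcription factors at that level 0 were called in either pair. Vim, of 2 mesenchymal genes, was -0.13 under the 4T1 label and 0.32 in the vesicle pair, both past the threshold.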

How the data were processed

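Per the labels' protocols, column-purified total RNA of each group went into NEBNext Ultra libraries. The authors deposited whole-number gene counts for 53647 Ensembl identifiers with symbols from a table of gene names (52093 matched). Alignment was to GRCm39 with HISAT2, per the submitters' processing notes. featureCounts (Subread 2.0.1) counted reads in paired-end mode over the exons of the Ensembl 103 annotation with no strand option, per the file headers, and kept those that mapped uniquely. A gene and its antisense partner can therefore share reads. The exonic length per gene was deposited in the same tables.

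Computed here were CPM over deposited totals (14059040 to 25975658) and edgeR 4.0.16 (R 4.3.3) quasi-likelihood F tests (TMM factors, filterByExpr, 14863 genes, a mean for each group, fitted to all 12 libraries), adjusted over all genes by Benjamini-Hochberg with a threshold of 0.05. The procedure was also tested on simulated data. Each SE was derived from a gene's fold change with its F value. Of the 37 genes 35 were tested, and those at a mean of 5 CPM or more in a group of the comparison are counted. Intervals and floors (3 counts) cover counting error only. Alternatives used DESeq2 1.42.0, limma 3.58.1, other factors and filters, the preparation as a block and a length offset. Values per library are given for genes called and for Epcam, Krt8, Krt18, Cdh1 and St14. Of each list of relatives the up to 4 genes with the smallest adjusted p are named, except 1 gene that is not reported here. The genes, lists and tests were chosen with earlier results of these data known. Promoter sequences are from RefSeq on GRCm38.p6. Tables and figures used Python 3.11.15 and matplotlib 3.10.9.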

Additional observations from a re-analysis of the deposited data

Results flagged for a closer look

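Responses of 2 of the genes differed between pairs of groups by a test of the difference itself, and no other result of these genes met a rule for a closer look. Groups of 2 libraries are too small for a test of single outlying libraries. For Itga6 the response to uniSTING mRNA under the DC2.4 label minus that under the 4T1 label was -0.28 on the log2 scale (edgeR quasi-likelihood test, adjusted p = 2.62e-05), and -0.17 with the length offset, under which the fall of Itga6 under the DC2.4 label became 0.0015. For Cd24a it was 1.39 (adjusted p = 3.53e-09). The response under the 4T1 label minus that of the vesicle pair was 0.41 for Itga6 (adjusted p = 1.83e-06) and -1.47 for Cd24a (adjusted p = 6.67e-07). Cell content, label and, for the second difference, treatment differ together between the pairs and cannot be told apart.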

How the results depend on the processing

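Of the 31 genes at 5 CPM or more in the libraries labelled DC2.4, 14 were called for uniSTING over Mock mRNA in the fit over 12 libraries. The count was 7 with DESeq2, 23 with limma-voom, 26 with only the libraries compared, 9 with a length offset, 0 for changes tested against a 2-fold minimum and 11 to 15 with 1 library left out. DESeq2 ended the calls of Krt19, Cldn3, Cldn4, Tjp1, F11r, Dsp and Ovol1. Ovol1 lost its call without any of the 4 libraries, Dsp and Grhl2 without either preparation 2 library, and Rab25 without Mock preparation 1. Itga6 turned to 0.0015 with the length offset, also with the replicate block added, and the offset itself changes the fold by length. In the libraries labelled 4T1 the 2 calls became 0 under the 2-fold minimum and 2 to 3 with 1 library left out. In the vesicle pair 1 call became 2 with DESeq2 size factors, upper-quartile factors, no filter, a filter of 1 CPM in at least 4 libraries, only the libraries compared, the replicate block, either length offset and either lower minimum level, and 0 under the 2-fold minimum, with 1 in every fit that left out a library. EXOmock over Mock labelled 4T1 gave 1 call in place of 5 under the 2-fold minimum. The differences of responses gave 1 and 0 calls in place of 2 each under it, 4 and 5 without a minimum level, and the second 4 with a 1 CPM minimum. The cause of these shifts was not tested beyond what each setting changes. The contrast of labels kept 31 calls with every library left out in turn, EXOmock over Mock labelled 4T1 kept 5, and both differences of responses 2.

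Libraries of the same preparation number deviated together, with correlations of 0.316 to 0.578 over 14863 genes between groups, but each group has 2 numbers and the labels do not say that a number marks a shared batch. With the number as a block, 16, 3 and 2 genes were called in the 3 comparisons of uniSTING with its control, against 14, 2 and 1 without. With 2 libraries a group, low counts, as for Tjp3, Ovol1 and Jup outside the DC2.4 label, limit the precision.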
